A study of Homo sapiens with 9 samples.

Results

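The genes examined here were HSPA5, HSP90B1, HYOU1, DNAJB9, DNAJB11, DNAJC3, DNAJC10, SIL1, SDF2L1 and MANF, which encode the endoplasmic reticulum (ER) chaperones BiP and GRP94 and the proteins that work with them. They were chosen by their function, with earlier results of these data known, and all 10 of 10 were among the 18239 genes measured. They were read on 9 Affymetrix arrays of K562 cells, an established line grown from a human chronic myeloid leukaemia. Del52 and Ins5 are frameshifting changes (a deletion and an insertion) in the last exon of calreticulin (CALR), known from myeloproliferative neoplasms. Cells of 1 group had received the Del52 form of CALR, cells of the next the Ins5 form, and cells of the last the wild-type (WT) form, with 3 arrays per group. All 3 groups therefore carried a retroviral CALR and had been through 4 rounds of infection, 1 every 12 h, with polybrene at 8 µg/ml. Culture after transduction lasted 36 h. Cells had been selected on beads for the surface marker NGFR, to a purity above 90% in a check at 48 h. The labels do not say that the cells' own CALR gene was altered, and an array of cells without a vector was not analysed here. Nothing in the labels says that replicates came from separate cultures, so the p-values measure the spread between these samples, which may be technical.

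The ER folds proteins bound for the secretory pathway, and BiP, the product of HSPA5, is its Hsp70 chaperone. BiP binds exposed hydrophobic stretches in cycles of ATP use, J-domain proteins (the DNAJ genes) start each cycle, and nucleotide exchange factors (HYOU1 and SIL1) end it. GRP94, the product of HSP90B1, takes over a narrower group of clients such as integrins. Unfolded proteins in the ER activate the sensors IRE1, PERK and ATF6, and the unfolded protein response that follows is known to induce many of these genes through short elements in their promoters. Calreticulin is a lectin chaperone of the same compartment. The study set the mutant forms against the normal one to see how they bear on the unfolded protein response.

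Promoters are shown because elements known to link such genes to the unfolded protein response can be seen in some of them. The sequences are the 250 bases before the start of each gene in RefSeq, build GRCh38.p14, 5′ to 3′ on the gene's strand, and all 10 genes were in that table. Capitals mark exact matches, on either strand, to the ER stress element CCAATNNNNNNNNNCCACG, to its second form ATTGGNCCACG or to the unfolded protein response element TGACGTGG. HSPA5 lies on the minus strand (chr9:125241344-125241593), HSP90B1 on the plus strand (chr12:103930160-103930409), HYOU1 on the minus strand (chr11:119057206-119057455), SDF2L1 on the plus strand (chr22:21642052-21642301) and DNAJB9 on the plus strand (chr7:108569624-108569873).
HSPA5: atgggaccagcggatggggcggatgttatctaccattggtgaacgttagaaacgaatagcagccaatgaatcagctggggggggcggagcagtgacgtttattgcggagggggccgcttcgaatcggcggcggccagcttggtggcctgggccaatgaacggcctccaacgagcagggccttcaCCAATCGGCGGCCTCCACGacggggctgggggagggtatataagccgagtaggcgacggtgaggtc
HSP90B1: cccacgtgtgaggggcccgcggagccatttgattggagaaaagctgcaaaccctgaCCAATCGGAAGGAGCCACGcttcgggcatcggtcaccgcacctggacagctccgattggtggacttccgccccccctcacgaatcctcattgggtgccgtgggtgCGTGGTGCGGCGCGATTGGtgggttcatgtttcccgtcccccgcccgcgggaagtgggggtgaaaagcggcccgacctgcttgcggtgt
HYOU1: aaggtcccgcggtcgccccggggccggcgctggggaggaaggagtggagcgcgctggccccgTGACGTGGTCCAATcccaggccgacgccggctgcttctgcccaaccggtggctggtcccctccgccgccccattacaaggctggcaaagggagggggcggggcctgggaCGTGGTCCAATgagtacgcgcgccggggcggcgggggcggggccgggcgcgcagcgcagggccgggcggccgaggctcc
SDF2L1: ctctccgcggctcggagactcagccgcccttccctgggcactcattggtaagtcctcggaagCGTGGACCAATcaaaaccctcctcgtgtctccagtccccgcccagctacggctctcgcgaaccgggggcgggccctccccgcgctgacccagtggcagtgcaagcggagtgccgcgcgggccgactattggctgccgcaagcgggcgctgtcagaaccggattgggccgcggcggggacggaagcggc
DNAJB9: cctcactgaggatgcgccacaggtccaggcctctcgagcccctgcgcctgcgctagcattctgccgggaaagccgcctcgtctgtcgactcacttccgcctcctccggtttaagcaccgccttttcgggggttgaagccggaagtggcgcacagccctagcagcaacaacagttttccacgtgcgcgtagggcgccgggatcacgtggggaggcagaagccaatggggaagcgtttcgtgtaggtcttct

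The HSPA5 window held 1 exact match to the ER stress element, at -66 to -48 relative to the start, and HSP90B1 held 2, on opposite strands. Among all 35116 promoters of the table, 0.074% held an exact match. Copies with other letters were not searched for, so a promoter may hold more elements than were counted. The second form stood at 2 places in HYOU1 and at 1 in SDF2L1, against 0.0513% of all promoters. HYOU1 also held TGACGTGG, which overlaps its more distant copy of the second form, and DNAJC10 held the same element on the other strand; 0.612% of all promoters did. The C/EBP-ATF composite TGATGNAAT was in 0 of the 10 windows and in 0.888% of all. DNAJB9, printed because its level went the other way from that of most of these genes, had none of these letters in its window, nor did DNAJB11, DNAJC3, SIL1 and MANF. A match is a description of the letters and not a measured site.

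Values are the authors' RMA values on the log2 scale, so a difference of 1 is a doubling of signal. Each gene is represented by its brightest probe set, and levels are compared only within a gene, never between genes. Of 10 measured K562 markers, 9 lay above all of the antigenomic control probe sets, which contain no human sequence and reached 6.52, and 1, EPOR, did not. Averaged over the marker list, single arrays lay between 8.88 and 9.09 in Del52, between 8.86 and 8.94 in Ins5 and between 8.82 and 8.96 in WT. Of the markers of other cells, LYZ (9.65 over 9 arrays) and EPCAM (8.54) were also above that level, while 0 of 5 lymphoid markers were. The brighter CALR probe set averaged 7.42 ± 0.18 in Del52, 7.40 ± 0.12 in Ins5 and 7.57 ± 0.24 in WT (SD, n = 3 each). The dimmer set, within the span of the controls, averaged 4.37 ± 0.07 in Del52, 4.28 ± 0.17 in Ins5 and 3.86 ± 0.17 in WT, and whether either set reads the vector's CALR is not known here. NGFR, the selection marker, had a mean of 3.40, which is also within that span. SIL1 (mean 5.04) and DNAJC3 (6.44) lay within the span of the antigenomic controls and the other 8 genes above it. Arrays differed mostly along 1 axis: the first principal component of all genes held 70.5% of the variance, with WT replicate 2 (score -33.6) and WT replicate 3 (33.9) at its ends. Along the second, with 10.0% of the variance, Del52 replicate 1 (-17.6) and WT replicate 1 (11.4) lay at the ends.

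HSPA5, the gene of BiP, was at 10.33, 10.35 and 10.14 in Del52, at 10.25, 10.07 and 10.11 in Ins5, and at 9.85, 10.01 and 10.17 in WT. The group means ran Del52, Ins5, WT from high to low, but WT replicate 3 lay above 1 Del52 array and 2 Ins5 arrays, so the groups overlapped. Del52 exceeded WT by 0.26 ± 0.10 (SE) on the log2 scale, or 1.20-fold (limma adjusted p = 0.655). For Ins5 the difference was 0.13 ± 0.10 (limma adjusted p = 0.854). In these bulk samples a smaller number of cells with a gene and less of its RNA per cell cannot be told apart. Neither passed the threshold of 0.05 over all genes. Without WT replicate 1, the lowest array, the difference was 0.18 for Del52 and 0.05 for Ins5, and without WT replicate 3 it was 0.34 for Del52 and 0.21 for Ins5.

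HSP90B1, the gene of GRP94, read 11.23, 11.06 and 11.01 in Del52, 11.01, 11.08 and 11.08 in Ins5, and 10.82, 10.93 and 10.99 in WT. In this probe set every mutant array was above every WT array. The gap between the lowest mutant array and the highest WT array was small. The differences were 0.19 ± 0.07 for Del52 (SE; limma adjusted p = 0.655) and 0.14 ± 0.07 for Ins5 (adjusted p = 0.712). Without Del52 replicate 1, the brightest array, the value for Del52 was 0.12. That array and WT replicate 1, the lowest for HSP90B1, were also the ends of the second principal component, whose part in the difference was not tested.

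**Figure D1:**
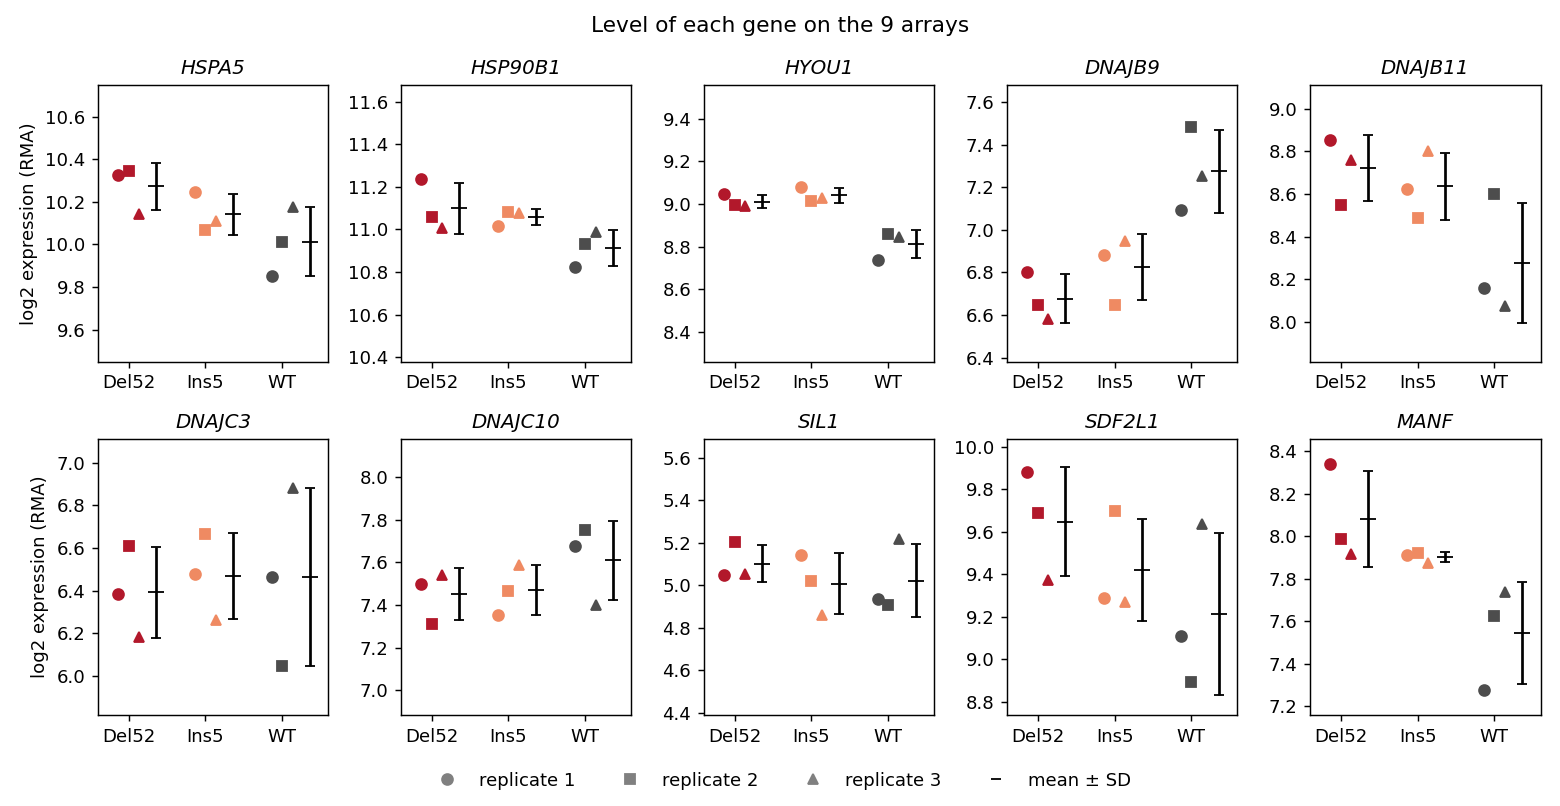
Log2 expression (vertical axis, with the same span of log2 units in each panel) of each of the 10 genes on the Del52, Ins5 and WT arrays; symbols give the replicate number and bars the mean ± SD of 3 arrays. HYOU1, HSP90B1 and MANF were higher in all 6 mutant arrays than in the 3 WT arrays, DNAJB9 was lower, and the groups of DNAJC3, SIL1 and DNAJC10 overlapped.

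HYOU1 and SIL1 both encode exchange factors that release ADP from BiP. HYOU1 is itself a large Hsp70 relative, and it had the smallest standard error of the 10 genes. It read 9.05, 8.99 and 8.99 in Del52, 9.08, 9.01 and 9.03 in Ins5, and 8.74, 8.86 and 8.84 in WT. In this probe set all 6 mutant arrays stood above all 3 WT arrays with a clear gap, and Del52 and Ins5 overlapped. The difference from WT was 0.20 ± 0.05 in Del52 (SE; limma adjusted p = 0.603) and 0.23 ± 0.05 in Ins5 (adjusted p = 0.466), or 1.15-fold and 1.17-fold. Differences between groups held 87.3% of the variance of HYOU1 over the 9 arrays, against a median of 21.3% over all genes. SIL1, whose loss causes Marinesco-Sjögren syndrome, read 5.05, 5.20 and 5.05 in Del52, 5.14, 5.02 and 4.86 in Ins5, and 4.94, 4.91 and 5.22 in WT. Its highest and its second-lowest value were both WT arrays, and its differences were 0.08 ± 0.10 for Del52 and -0.01 ± 0.10 for Ins5 (SE; limma adjusted p = 0.962 and 1). Without WT replicate 2 the value for Del52 was 0.02, and without WT replicate 3 it was 0.18.

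The J-domain genes did not share 1 direction. DNAJB9 encodes a small ER J protein that directs clients to degradation and holds IRE1 in check. It read 6.80, 6.65 and 6.58 in Del52, 6.88, 6.65 and 6.95 in Ins5, and 7.09, 7.48 and 7.25 in WT. All 6 mutant arrays were below all 3 WT arrays. The difference was -0.60 ± 0.12 in Del52 (SE; limma adjusted p = 0.603), or 0.661-fold, and -0.45 ± 0.12 in Ins5 (adjusted p = 0.521), or 0.733-fold. Leaving out any 1 array gave -0.69 to -0.49 for Del52 and -0.54 to -0.35 for Ins5. No other of the 10 genes had a lower unadjusted p in Del52 against WT (0.00109, rank 27 of all genes).

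DNAJB11 encodes an abundant J protein that delivers unfolded clients to BiP. It read 8.85, 8.55 and 8.76 in Del52, 8.62, 8.49 and 8.80 in Ins5, and 8.16, 8.60 and 8.07 in WT. WT replicate 2 lay among the mutant arrays, and the other 2 WT arrays lay below all of them. The difference was 0.44 ± 0.15 in Del52 (SE; limma adjusted p = 0.633) and 0.36 ± 0.15 in Ins5 (adjusted p = 0.659). Without WT replicate 2 the values were 0.60 and 0.52, and without WT replicate 3 they were 0.34 and 0.26.

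DNAJC3 encodes a J protein also known as an inhibitor of PERK and other eIF2α kinases, and DNAJC10 a J protein with thioredoxin domains that reduces disulfides of misfolded proteins. DNAJC3 read 6.38, 6.61 and 6.18 in Del52, 6.48, 6.67 and 6.26 in Ins5, and 6.46, 6.05 and 6.88 in WT. The WT arrays held both its highest and its lowest value, and its differences were -0.07 ± 0.21 for Del52 and 0.00 ± 0.21 for Ins5 (SE; limma adjusted p = 1.00 and 1). DNAJC10 read 7.50, 7.31 and 7.54 in Del52, 7.35, 7.47 and 7.59 in Ins5, and 7.68, 7.75 and 7.40 in WT. Its 2 highest arrays were WT, but WT replicate 3 lay among the lowest, and the differences were -0.16 ± 0.11 for Del52 and -0.14 ± 0.11 for Ins5 (SE; limma adjusted p = 0.856 and 0.863). Without WT replicate 2 the values were -0.09 for Del52 and -0.07 for Ins5, and without WT replicate 3 they were -0.26 for Del52 and -0.25 for Ins5.

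SDF2L1 and MANF are small soluble ER proteins without a J domain. SDF2L1 pairs with DNAJB11 and keeps clients from aggregating. It read 9.88, 9.69 and 9.37 in Del52, 9.29, 9.70 and 9.27 in Ins5, and 9.11, 8.89 and 9.64 in WT. The spread within each group was wide, since WT replicate 3 lay above 1 Del52 array and 2 Ins5 arrays, and WT replicate 2 was the lowest of all. Its differences were 0.43 ± 0.22 for Del52 (SE; limma adjusted p = 0.753) and 0.21 ± 0.22 for Ins5 (adjusted p = 0.936). Without WT replicate 3 the values were 0.65 for Del52 and 0.42 for Ins5, and without WT replicate 2 they were 0.28 for Del52 and 0.05 for Ins5.

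MANF binds BiP, slows its nucleotide exchange and can be secreted as a survival factor. It read 8.34, 7.99 and 7.92 in Del52, 7.91, 7.92 and 7.87 in Ins5, and 7.28, 7.62 and 7.74 in WT. Every mutant array was above every WT array, and the 3 Ins5 arrays lay close together (SD 0.025). The difference was 0.53 ± 0.14 in Del52 (SE; limma adjusted p = 0.603), or 1.45-fold, and 0.36 ± 0.14 in Ins5 (adjusted p = 0.647), or 1.28-fold. Del52 replicate 1 and WT replicate 1, the arrays at the ends of the second principal component, were its highest and lowest, and the part of that axis in the difference was not tested. Without WT replicate 1 the value for Del52 was 0.40 and that for Ins5 0.22.

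**Figure D2:**
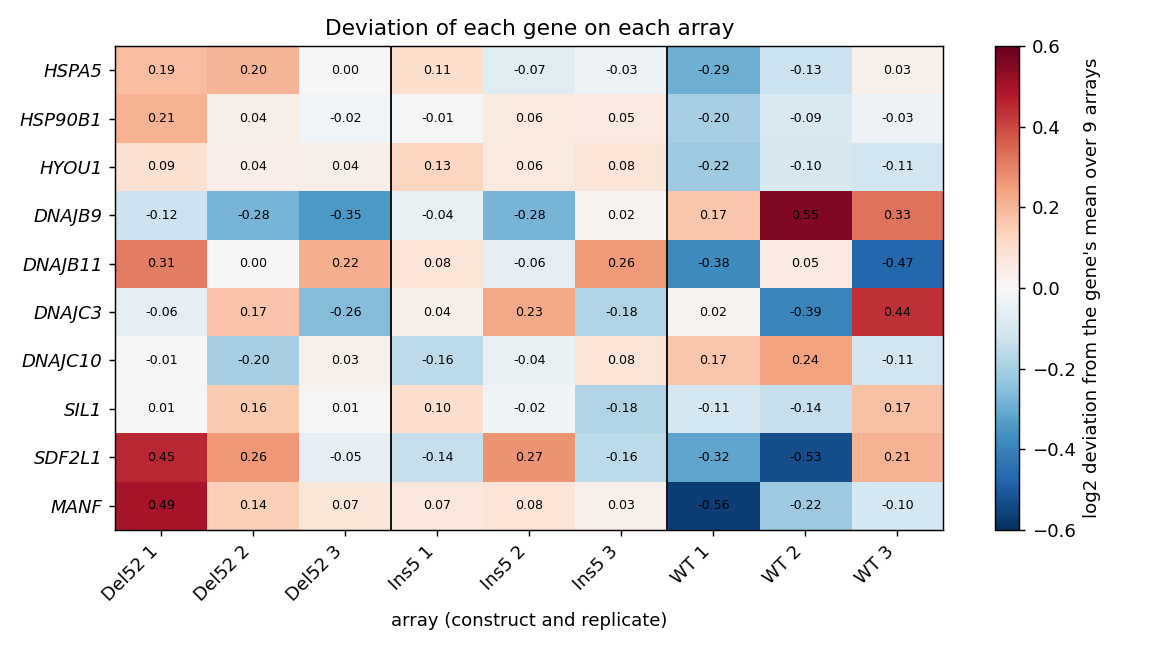
Deviation of each gene on each array from its own mean over the 9 arrays (log2 units, red above and blue below the mean), with arrays grouped as Del52, Ins5 and WT. WT replicate 1 had 3 of the 10 genes above their mean and Del52 replicate 2 had 8. DNAJB9 was above its mean in all WT arrays, where MANF, HYOU1 and HSP90B1 were below theirs. Within Del52, DNAJB9 and MANF both fell from replicate 1 to replicate 3.

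Against WT, Del52 had 7 of the 10 genes higher and 3 lower, with a median difference of 0.19, while 9957 of all 18239 genes were higher, with a median of 0.01. None passed: 0 of the 10 had a limma adjusted p under 0.05, as did 0 genes of all (0%), so no difference was called. At an unadjusted limma p under 0.05 there were 6 of the 10 genes, namely HSPA5, HSP90B1, HYOU1, DNAJB11 and MANF higher and DNAJB9 lower, where 7.05% of all genes had such a p. HSP90B1, HYOU1 and MANF stood above WT in every array, a pattern that 6.23% of all genes had, and DNAJB9 stood below in every array, as did 4.36% of all genes. Unadjusted limma p-values of these genes rested partly on single arrays: without WT replicate 1 that of HSPA5 was 0.0938 and that of HSP90B1 0.107, and without Del52 replicate 1 that of DNAJB11 was 0.0674.

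Ins5 against WT also had 7 of the 10 genes higher and 3 lower, with a median of 0.14, while 10866 of all 18239 genes were higher, with a median of 0.02. Again 0 of the 10 and 0 of all genes (0%) had a limma adjusted p under 0.05. At an unadjusted limma p under 0.05 there were 4: HYOU1, DNAJB11 and MANF higher and DNAJB9 lower, against 7.41% of all genes. The same 3 genes as in Del52 were above WT in every array (8.16% of all genes) and DNAJB9 was below in every array (3.3%). The comparisons share their WT arrays, so a WT array that is low in a gene raises both differences together.

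**Figure D3:**
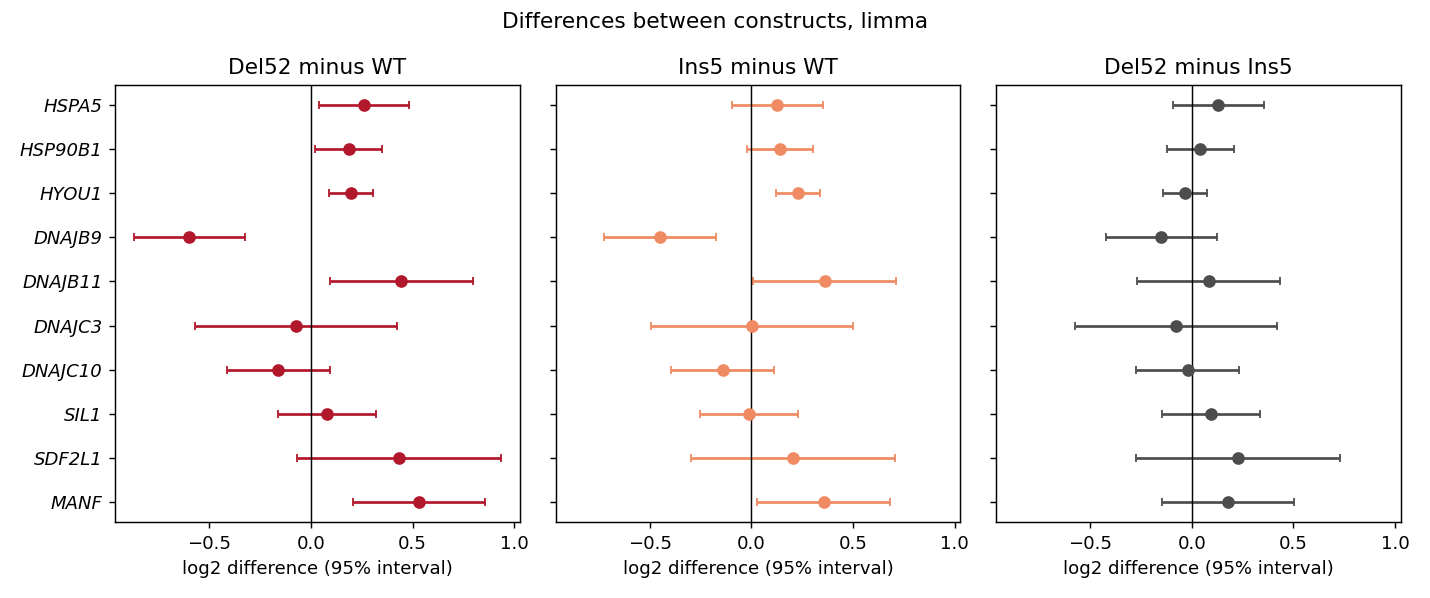
Log2 difference with its 95% interval (limma, 9 arrays in 1 fit) for Del52 minus WT, Ins5 minus WT and Del52 minus Ins5, 1 row per gene. Intervals of HYOU1, DNAJB9, DNAJB11 and MANF lay on 1 side of zero in both comparisons with WT, and all 10 intervals of Del52 minus Ins5 covered zero.

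The mean of both mutants was set against WT as a comparison of its own. HYOU1 (0.21 ± 0.04 SE, limma adjusted p = 0.467), DNAJB9 (-0.52 ± 0.10, adjusted p = 0.467), MANF (0.44 ± 0.12, adjusted p = 0.523) and DNAJB11 (0.40 ± 0.13, adjusted p = 0.544) had the smallest unadjusted p-values of the 10. None of the 10 passed, as none of all genes did (0%), and 6 had an unadjusted limma p under 0.05, against 7.97% of all genes. All 6 mutant arrays lay above all 3 WT arrays in 3 of the 10 genes, against 2.76% of all genes, and below them in 1, against 1.26%. The F test over the 3 groups called 0 of the 10 and 0 of all genes (0%). At an unadjusted p under 0.05 it had 4 of the 10 (HYOU1, DNAJB9, MANF and DNAJB11), against 7.23% of all genes.

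Del52 and Ins5 were compared directly. The order Del52, Ins5, WT from high to low held for 5 of the 10 genes (HSPA5, HSP90B1, DNAJB11, SDF2L1 and MANF), and the reverse order for DNAJB9 and DNAJC10. In none of these 7 did the neighbouring groups Del52 and Ins5 separate: 0 of the 10 genes had arrays that did not overlap, where 3.81% of all genes lay above and 6.28% below in every Del52 array. The differences ran from -0.15 ± 0.12 (SE) for DNAJB9 to 0.23 ± 0.22 for SDF2L1. For HYOU1 the 95% interval of the difference was -0.14 to 0.08, and for HSP90B1 it was -0.12 to 0.21. The intervals were wider for MANF, -0.15 to 0.50, and for DNAJB9, -0.42 to 0.13. None of the 10 passed (limma adjusted p = 1.00 for each, 0% of all genes called), and 0 of them had an unadjusted p under 0.05, against 5.77% of all genes.

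Other probe sets of the same genes were used as a check. The 10 genes had 38 probe sets in all, and DNAJB11, SIL1, SDF2L1 and MANF had only 1 each. All 6 probe sets of HSPA5 were higher in both mutants, by 0.22 to 0.33 in Del52 and by 0.11 to 0.46 in Ins5. Both upper ends came from a set with a mean of 5.43, within the span of the controls. Among the brighter sets the Ins5 difference was at most 0.20. HSP90B1 was higher in Del52 in all 7 of its probe sets (0.17 to 0.28), but in Ins5 3 of the other 6 were slightly negative, down to -0.04. Mutant and WT arrays overlapped in most of these other 6 and stayed apart in the rest. In the brightest of them WT replicate 3 (10.37) lay above Ins5 replicate 3 (10.32). HYOU1 was higher in Del52 in all 9 (0.05 to 0.34), and in Ins5 in 7 of the other 8, the exception being -0.06. In each of these other 8, however, mutant and WT arrays overlapped. In the brightest of them WT replicate 3 (7.82) lay above Ins5 replicate 3 (7.78). Several HYOU1 sets lay within the span of the controls, down to a mean of 4.22, and an average over sets includes them. With all probe sets of a gene averaged, HYOU1 differed by 0.17 ± 0.08 in Del52 (SE, limma adjusted p = 0.749) and by 0.11 ± 0.08 in Ins5 (adjusted p = 0.842). Neither of these had an unadjusted limma p under 0.05. The same averaging gave 0.07 ± 0.07 for HSP90B1 in Ins5.

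The lower level of DNAJB9 was also seen in its next probe set, with differences of -0.56 ± 0.17 (SE) in Del52 and -0.44 ± 0.17 in Ins5. The third one, with a mean of 2.96, did not follow (0.10 and 0.00), and the average of all 3 gave -0.36 ± 0.09 in Del52 and -0.30 ± 0.09 in Ins5. DNAJC10 was lower in Del52 in all 6 probe sets, by at most 0.20. The probe sets of DNAJC3 disagreed in sign.

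**Figure D4:**
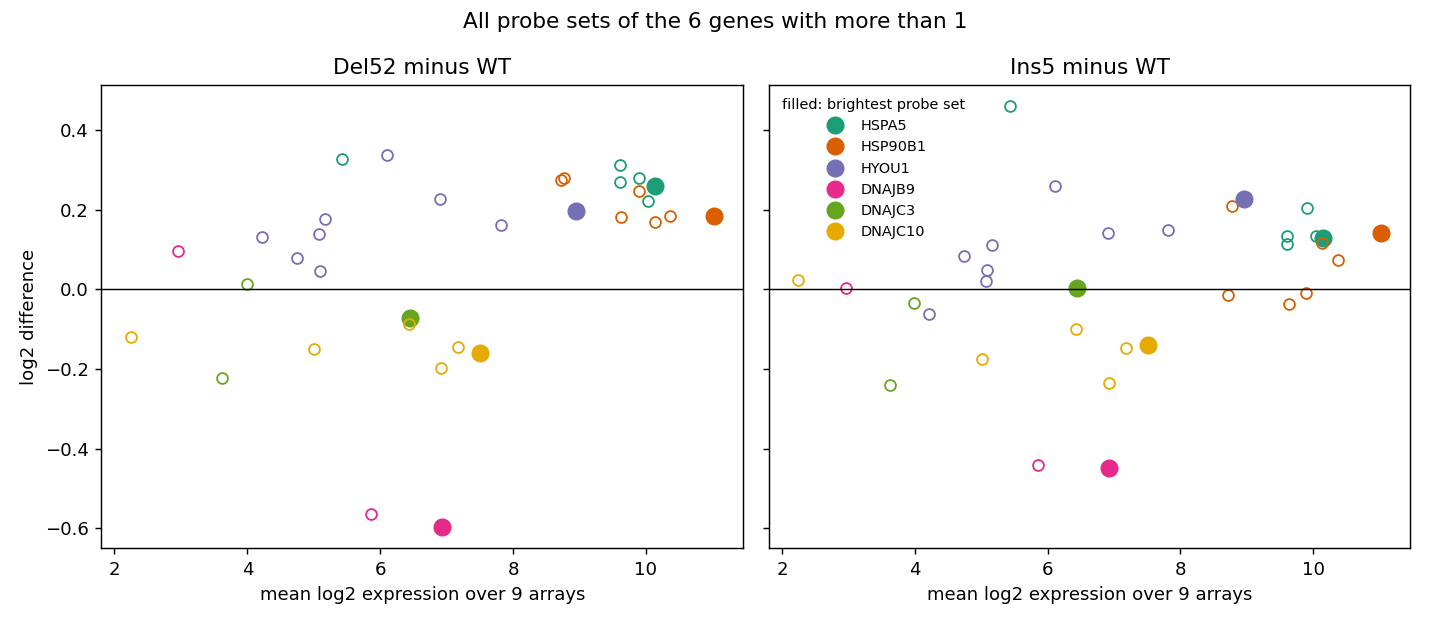
Log2 difference from WT (vertical axis) against mean log2 expression over 9 arrays (horizontal axis) for every probe set of the 6 genes that had more than 1; filled points are the brightest probe set of each gene. HSPA5, HSP90B1 and HYOU1 probe sets lay above zero in Del52, and both brighter DNAJB9 probe sets lay at -0.60 and -0.56 in Del52 and at -0.45 and -0.44 in Ins5.

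Several of the 10 genes moved with the main axis of the arrays, whatever the construct. DNAJC3 was lowest in WT replicate 2 and highest in WT replicate 3, the arrays at the ends of that axis, and its Del52 and Ins5 arrays lay between them. With the score as a covariate, the standard error of DNAJC3 in Del52 against WT was 0.04 instead of 0.21, and the difference -0.04. DNAJB11 ran the other way along the axis, and its difference in Del52 was 0.42 ± 0.06 (SE; limma adjusted p = 0.0507) with the covariate. For the mean of both mutants the covariate gave 0.39 ± 0.05 for DNAJB11, with limma adjusted p = 0.0421, past the threshold among 68 genes of all that passed. HYOU1 (adjusted p = 0.0569) and DNAJB9 (0.0534) did not pass there. The score was computed from the same arrays, so this fit is an alternative and not a test of its own.

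**Figure D5:**
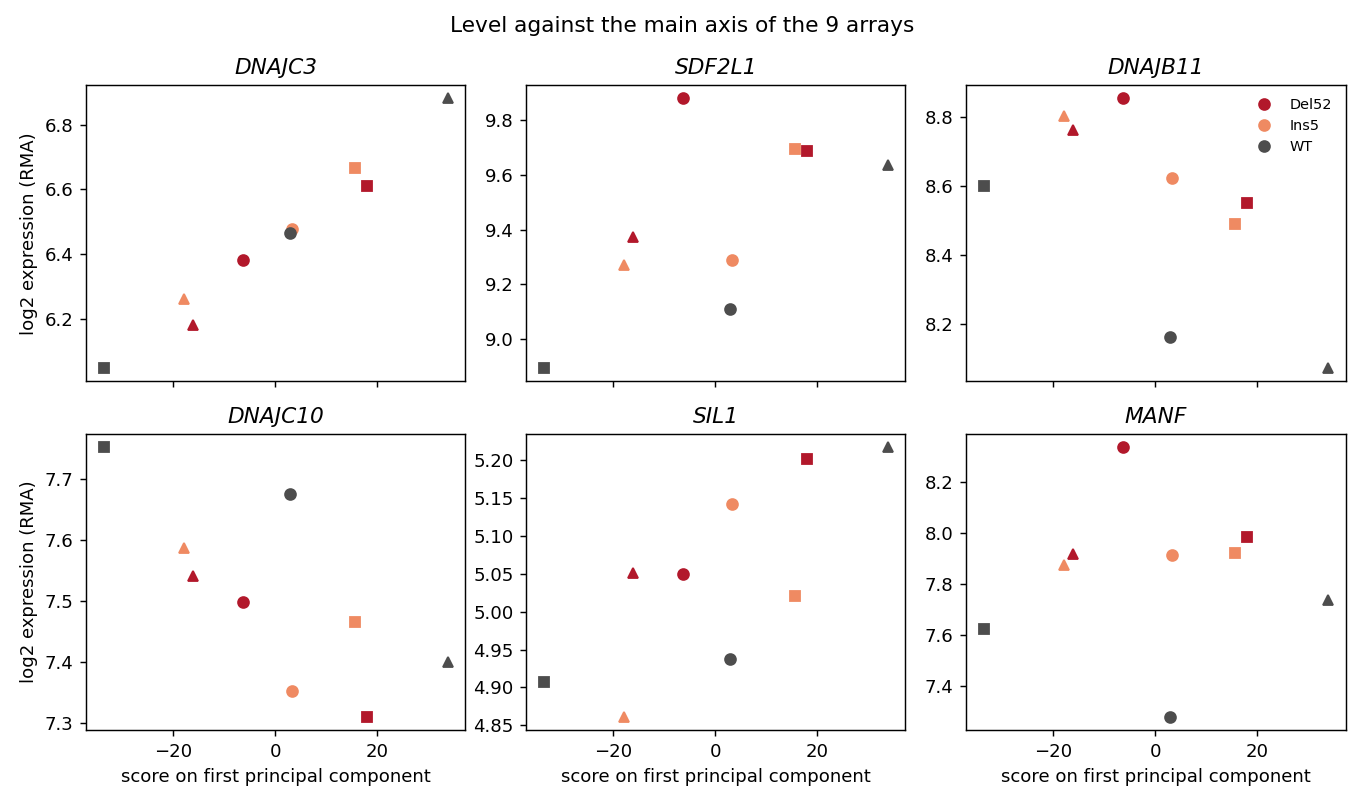
Log2 expression (vertical axes, ranges differ by panel) of 6 of the genes against each array's score on the first principal component of all genes (horizontal axis); colours give the construct and symbols the replicate as in the plot of levels. DNAJC3 lay close to a single line over all 9 arrays, while the WT arrays of MANF stayed below the mutant arrays at every score.

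Neighbouring genes of the pathway gave context. A list of 13 other ER genes held J-domain and Hsp70 genes, but also relatives of SDF2L1 and MANF and other genes. Of these 13, 6 were higher and 7 lower in Del52 (median -0.01), with 0 passing. HSPA13, another ER-associated Hsp70, was at 7.43 ± 0.23 in Del52, 7.47 ± 0.15 in Ins5 and 7.93 ± 0.34 in WT (SD, n = 3 each), with overlapping arrays. CNPY3, a co-chaperone of GRP94 for Toll-like receptors, had a difference of 0.16 ± 0.06 in Del52 (SE; limma adjusted p = 0.667). DNAJC18, which had a mean of 3.13 in Ins5 and 3.00 in WT, within the span of the controls, differed by 0.13 ± 0.05 (SE; limma adjusted p = 0.643).

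Sensors and regulators of the unfolded protein response had 4 of 11 genes higher in Del52 (median -0.17) and 7 of 11 higher in Ins5 (median 0.05), with 0 passing in either. EIF2AK3, the gene of PERK, was below WT in every Del52 and every Ins5 array, by -0.35 ± 0.07 and -0.19 ± 0.07 (SE; limma adjusted p = 0.603 and 0.640). ERN1, the gene of IRE1, had 0.12 ± 0.04 in Del52 at a level within the span of the controls (mean 2.92 in Del52, 2.80 in WT). ATF6B, a relative of ATF6, had 0.22 ± 0.05 in Ins5 and -0.20 ± 0.05 in Del52 against Ins5 (limma adjusted p = 0.466 and 0.841). Against Ins5, MBTPS2, which cleaves ATF6 in the Golgi, had -0.21 ± 0.08 in Del52.

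Other luminal folding genes had 9 of 14 measured members higher in Del52 (median 0.03) and 10 of 14 in Ins5 (median 0.06), 0 passing. The disulfide isomerases PDIA3 and PDIA6 had 0.42 ± 0.10 and 0.22 ± 0.06 in Del52, and 0.28 ± 0.10 and 0.19 ± 0.06 in Ins5. CRELD2, an ER stress-induced secreted protein, had 0.32 ± 0.10 in Del52 (SE; limma adjusted p = 0.606). SUMF2 had -0.22 ± 0.08 in Del52 against Ins5. Of the receptors that return escaped chaperones to the ER, KDELR1 had all its Del52 arrays below all its WT arrays (7.96 ± 0.02 in Del52, 8.09 ± 0.05 in WT, SD, n = 3 each; limma adjusted p = 0.606), and KDELR3 had -0.18 ± 0.07 in Del52 (SE; adjusted p = 0.667).

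The 9 ER quality control genes known to be induced with BiP had 5 higher and 4 lower in Del52 (median 0.03). In Ins5 they had 7 higher and 2 lower (median 0.03), with 0 passing in either. An unadjusted limma p under 0.05 was found for 0 of them, against 7.05% of all genes in Del52 and 7.41% in Ins5. HERPUD1 (-0.43 ± 0.22 SE) and SEL1L (-0.28 ± 0.17) were the lowest of the 9 in Del52. A list of 16 genes outside the ER held Hsp70 and Hsp90 relatives, J-domain genes and other mitochondrial chaperone genes. Of these, 14 of 16 were higher in Del52 (median 0.13) and 6 of 16 in Ins5 (median -0.01), 0 passing. DNAJB4, a cytosolic J protein, was below WT in every mutant array, by -0.17 ± 0.07 in Del52 and -0.37 ± 0.07 in Ins5 (SE; limma adjusted p = 0.667 and 0.466).

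The genes whose levels were most like those of 3 of the 10 over the 9 arrays were listed by Pearson's r. They were taken from 9118 other genes above the median level, as a description without a test. For HSPA5 these were TAC3 (r = 0.98), BGN (0.97), C19orf48P (0.96), CPA4 (0.95) and RAB12 (0.94). For HSP90B1 they were TRIR (r = 0.99), VEGFB (0.99), NSFL1C (0.98), SPON2 (0.97) and RIC8A (0.97). DNAJB9 was closest to ZKSCAN1 (r = 0.97), NOS1 (0.97), TMEM258 (0.96), RPL21 (0.96) and OSER1 (0.95).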

How the data were processed

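Gene expression in 9 K562 samples was measured on Affymetrix arrays. The deposited values are log2 expression per probe set, made by the authors with Partek and RMA per the submitters' processing notes; how these were set is not given in the sources used here. Their log base was read from the values (highest 12.2). Array medians were 3.73 to 3.76. Arrays have no depth, so their number limits precision.

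Of 49386 probe sets, 93 controls were left out; 45253 had 1 gene symbol, 1327 several and 2713 none listed. The brightest 1-symbol probe set represented each of 18239 genes. All arrays entered 1 limma 3.58.1 fit (R 4.3.3) with a mean per group, 6 residual degrees of freedom and moderated variances; p-values are two-sided, Benjamini-Hochberg adjusted over all genes, threshold 0.05. The fit was checked on simulated data with independent noise per gene. These lack the main axis of the real arrays, so the check cannot show how calls behave under it. Sequences and motifs were read with Python 3.11.15.

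The members, lists and tests were chosen with earlier results of these data known. Named genes were the 10 members, CALR, the 5 genes most like 3 members, and up to 3 genes per context list and comparison with an unadjusted p under 0.05; HERPUD1, SEL1L, EPOR, LYZ and EPCAM were named after their values were seen. Alternatives were the replicate number as a block, median centring, quantile normalization, a filter on dim genes, mean or single probe sets, an intensity trend, no moderation, array weights, 6 arrays, a threshold of 0.1, the first principal component and each array left out. Same-numbered arrays were not paired: their deviations from group means correlated at -0.92 to 0.64. Protein sequences were not used here.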

Additional observations from a re-analysis of the deposited data

How the results depend on the processing

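For 18239 genes tested, the number passing was 0 in each comparison, and it was 0 in all of them with any 1 array left out, under the replicate block (0 of the 10 members), quantile normalization, median centring, the filter on dim genes, mean or single probe sets, the intensity trend, 6 arrays per comparison (not possible for the pooled comparison and the F test) and a threshold of 0.1. Without moderation (no F test) 2 genes passed in Del52 against WT, 9 in Ins5 against WT, 1 in Del52 against Ins5 and 8 for both mutants, none of them a member. With the first principal component as covariate 4, 7 and 68 genes passed in the comparisons with WT (Del52, Ins5, both) and 2 in the F test, with 1 member, DNAJB11, for both mutants. Array weights gave 3190 genes and 7 members in Del52, 4017 and 7 in Ins5, 6232 and 9 for both, and 5345 and 8 in the F test, but 0 in Del52 against Ins5; that estimate did not converge and put a weight of 67.0 on WT replicate 1, against 0.237 to 1.82 elsewhere. Weights estimated gene by gene, chosen after seeing the data, called 0.

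Of 830 member differences under the alternatives, 805 kept their sign. The replicate block, the filter on dim genes, single probe sets, the intensity trend, no moderation and 6 arrays leave the difference itself unchanged. In those settings, and without an array of a group outside the comparison, the sign could not change. None of the 25 that changed sign belonged to HSPA5, HSP90B1, HYOU1, DNAJB9, DNAJB11 or MANF against WT. These 6 genes had been picked for an unadjusted limma p under 0.05 in Del52 against WT, so their stable sign is no separate support. SIL1 in Ins5 against WT was 0.0016 with quantile normalization, 0.13 with array weights and 0.091 gene by gene. DNAJC3 in Ins5 was -0.029 with median centring and -0.090 as the mean of its probe sets. In Del52 against Ins5, DNAJC10 was 0.0050 with median centring, 0.056 with array weights and 0.041 gene by gene, and HYOU1 was 0.057 as the mean of its probe sets. With 1 array left out, DNAJC3 ran from -0.28 to 0.14 in Del52, -0.20 to 0.21 in Ins5, -0.19 to 0.028 between the mutants and -0.24 to 0.17 for both. SIL1 ran from -0.079 to 0.086 in Ins5 and -0.023 to 0.13 for both, and between the mutants DNAJC10 ran from -0.076 to 0.052 and HSP90B1 from -0.024 to 0.090. The cause was not tested.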
